A study of Mus musculus with 35 samples.

Results

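The solute carrier genes described here encode the transporters that move amino acids, sugars, ions, metals, vitamins and metabolites across cell and organelle membranes. Of 371 protein-coding genes with a symbol made of Slc and a family number, 9 were left out by name (*Slc2a1*, *Slc7a5*, *Slc3a2*, *Slc16a1*, *Slc38a5*, *Slc1a3*, *Slc32a1*, *Slc40a1* and *Slc11a2*), and 182 of the rest had a mean of 200 or more normalized counts over 12 bulk libraries. These 182 members were chosen by that measured mean, out of 53465 genes in the table. The study sorted neural, mural, endothelial and microglial cells from dissociated wild-type mouse brains at embryonic day 14.5, and asked how these populations differ and communicate. Bulk RNA-seq was made from 3 libraries of each population, from brains of the same 3 numbers. They are called the first (brain 340), the second and the third brain below, and values of 3 libraries are given in that order. Other wild-type cells were sorted singly into wells on 3 plates for mCEL-Seq2, where molecular identifiers give the number of transcripts. No treatment was given, and cells of knockout brains were not analysed here.

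For the bulk libraries, neural cells were those negative for all surface markers, mural cells had high PDGFRβ, endothelial cells were positive for PECAM1 and CD102, and microglia had medium CD45 with CD11b. In the table of wells, the gate taken here as microglial is named by medium CD45 with CD41. Neural cells were defined only by the absence of markers and hold progenitors and neurons together. RNA of the neural cells was made into TruSeq libraries, and RNA of the other 3 populations into SMART-Seq v4 libraries, so in bulk a difference between neural and other cells cannot be told apart from a difference between kits. The single cells of all 4 gates were made with the same chemistry.

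Solute carriers are grouped into families by sequence and substrate. In the brain, carriers of endothelial cells move nutrients across the blood-brain barrier, carriers of neurons and glia load and clear transmitters, carriers of microglia and other phagocytes serve endosomes and lysosomes, and those of the SLC25 family cross the inner mitochondrial membrane. Glutamate and γ-aminobutyric acid (GABA), for example, are loaded into vesicles by some carriers and taken back from outside the cell by others.

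Depth ran from 17638358 to 98414914 reads on genes per bulk library. The summed level of 5 mural markers was 690401 to 739450 normalized counts in mural libraries and at most 6962 elsewhere, that of 5 endothelial markers 142574 to 159138 against at most 1520, and that of 5 microglial markers 177021 to 185349 against at most 176. The sum of 6 neural markers was 143272 to 155666 in neural libraries but still 11045 to 35702 in the others. Of these, *Nes* and *Sox11* were high in several populations, while *Dcx* had a mean of 34250 in neural cells and at most 739.5 elsewhere. Markers of further cell types were also seen. Fibroblast markers (5 genes) summed to 3565 to 4954 in mural cells and to 268 at most elsewhere, with *Pdgfra* near 0 in mural cells. Border macrophage markers (4 genes) summed to 8983 to 11743 in microglia, 325 to 994 in mural cells and 102 at most elsewhere, and erythroid markers (6 genes) to 12168 to 32942 in endothelial cells, 8484 to 11347 in neural cells and 1969 at most elsewhere. Their part in the results below was not tested. In bulk samples fewer cells of a type and less RNA per cell cannot be told apart.

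The members with the largest differences in microglia were *Slc11a1*, *Slc2a5*, *Slc15a3* and *Slc37a2*, and the bases upstream of 3 of them are shown because they lead the microglial members described below. The sequences are from RefSeq (GRCm38.p6), hold the bases before the gene's start in its direction (250 before the RefSeq start, ending earlier where GENCODE places the start earlier), and have capitals where the letters GAGGAA, a core of sites of the myeloid factor PU.1, or their reverse complement TTCCTC occur. *Slc15a3* is named only. The windows are chr1:74374953-74375194 on the plus strand for *Slc11a1*, chr4:150119094-150119282 on the plus strand for *Slc2a5* and chr9:37255739-37255988 on the minus strand for *Slc37a2*.
Slc11a1: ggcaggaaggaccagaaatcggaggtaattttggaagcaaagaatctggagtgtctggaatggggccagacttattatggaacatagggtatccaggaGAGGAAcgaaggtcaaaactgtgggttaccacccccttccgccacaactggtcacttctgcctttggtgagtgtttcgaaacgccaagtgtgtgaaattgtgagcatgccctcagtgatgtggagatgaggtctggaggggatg
Slc2a5: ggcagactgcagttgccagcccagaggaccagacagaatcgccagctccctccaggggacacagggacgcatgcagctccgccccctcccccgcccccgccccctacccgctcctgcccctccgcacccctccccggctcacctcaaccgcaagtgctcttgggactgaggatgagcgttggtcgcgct
Slc37a2: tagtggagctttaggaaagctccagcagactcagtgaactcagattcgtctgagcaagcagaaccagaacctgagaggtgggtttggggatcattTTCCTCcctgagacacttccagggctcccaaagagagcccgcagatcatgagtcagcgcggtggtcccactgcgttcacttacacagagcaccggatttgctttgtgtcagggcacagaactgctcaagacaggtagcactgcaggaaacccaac
The letters occur once in the windows of *Slc11a1* and *Slc37a2* and not in that of *Slc2a5*. Over the 13 members more than 10-fold higher in microglia, 10 had a window, here the full 250 bases before the RefSeq start, and 4 of these, or 40%, held GAGGAA on either strand, against 33 of 143 members with a window, or 23.1%, and 25.9% of the 27025 genes of the table. Among members over 10-fold higher elsewhere, 3 of 17 held GAGGAA in neural, 1 of 10 in mural and 2 of 11 in endothelial cells. No test was run on these small sets. For CCGGAAGT, an ETS factor motif searched on both strands, the share among the 27 mitochondrial carriers with a window was 3.70%, or 1 gene, against 3.23% of all genes. Both motifs hold GGAA, but neither holds the other. A match is a description of letters, not a binding site.

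All 182 members passed the minimum mean of 10 used for testing. The rule saw only the mean over all libraries, so a member can owe its place to a single population. In 41 members the 9 libraries outside some population had a mean under 200, so the mean of that population had to lie above theirs, if only slightly. Of these, 20 depended on neural cells alone, 9 on microglia, 5 on mural cells and 4 on endothelial cells, and 3 on neural cells and 1 other population. Bulk differences of such a member in that population are given below as a description, with their SE and no p. A mean of 200 or more was reached in each of the 4 populations by 96 members. At the edge of the rule, *Slc17a7*, *Slc45a1* and *Slc27a3* had means of 202.8, 210.8 and 218.3, and just outside it *Slc22a21*, *Slc16a7* and *Slc26a6* had 199, 194.8 and 188.3. Summed over members, the carriers took 0.687% to 1.21% of the normalized counts of a library, with the highest share in an endothelial library and the lowest in a microglial one. Replicates were closest in neural libraries, where the median coefficient of variation of members with a population mean of 200 or more was 4.17%, against 34.1% in mural, 37.1% in endothelial and 26.2% in microglial libraries.

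Each population was compared with the mean of the other 3 by limma on log2(normalized count + 1), and a member was called at an adjusted p under 0.05 (Benjamini-Hochberg over all 19765 genes tested) and a difference over 2-fold. The 4 contrasts share their libraries. Genes tested need a mean of only 10, while members have 200 or more. Shares of members and of all genes, here and below, are therefore not matched for level. Of the members, 66 (36.3%) were higher in neural cells, beside 29% of all genes tested, and 37 (20.3%) were lower, beside 26.4%. In mural cells 25 members (13.7%) were higher, beside 13.5% of genes, and 52 (28.6%) were lower, beside 18.6%. Endothelial cells had 39 members higher (21.4%, genes 15.4%) and 42 lower (23.1%, genes 18.3%), and microglia had 39 higher (21.4%, genes 18.5%) and 39 lower (21.4%, genes 18.7%). More than 10-fold, 21 members were higher in neural cells (11.5%, genes 13.8%), 11 in mural cells (6.04%, genes 4.99%), 12 in endothelial cells (6.59%, genes 6.28%) and 13 in microglia (7.14%, genes 8.27%). Of the members higher in a population, those that reached the mean of 200 only through it numbered 19 in neural, 5 in mural, 4 in endothelial and 9 in microglial cells. Among those over 10-fold higher they made up 13 of 21 in neural, 5 of 11 in mural, 3 of 12 in endothelial and 7 of 13 in microglial cells. The median member difference was 0.59 in neural cells (all genes 0.09), -0.53 in mural cells (all genes -0.10), -0.18 in endothelial cells (all genes -0.12) and 0.16 in microglia (all genes -0.02) on the log2 scale. Leaving out the second brain took the members lower in mural cells from 52 to 34, and leaving out the third brain took those lower in endothelial cells from 42 to 26.

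**Figure D1:**
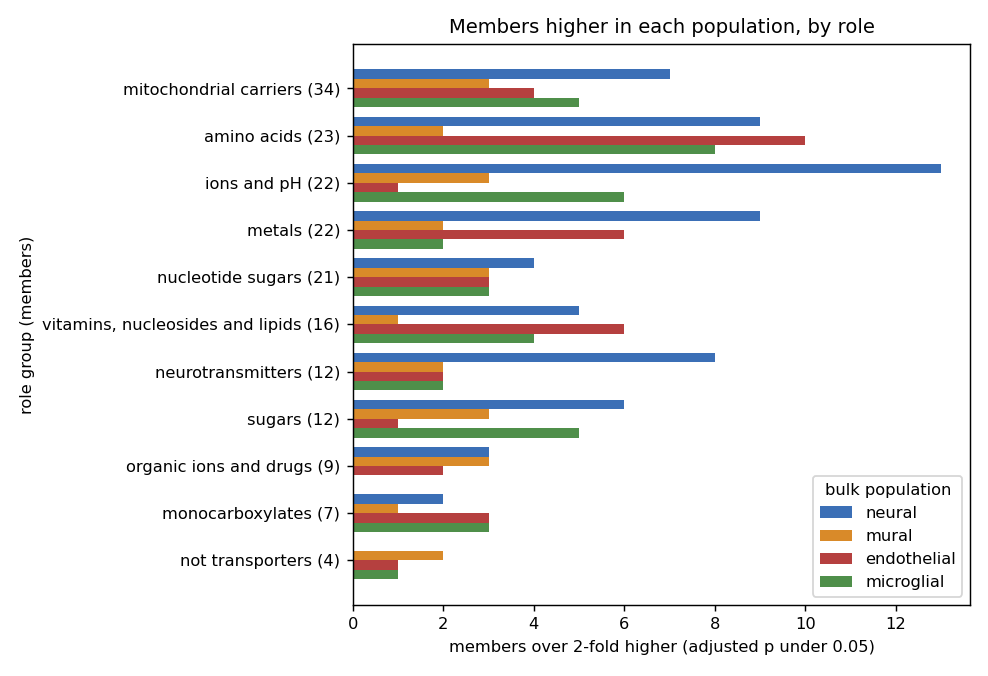
Number of members over 2-fold higher in each bulk population against the mean of the other 3 (x axis), by role group with its number of members (y axis). The longest neural bar is that of ions and pH (13 of 22), and the endothelial bar is longest for amino acids (10 of 23).

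A call in at least 1 contrast was made for 148 members, and 34 (18.7%) had none, beside 27.2% of all genes tested. The plot of members by role shows how calls were spread, and shares of each role group below stand beside 29% of all genes higher in neural, 13.5% in mural, 15.4% in endothelial and 18.5% in microglial cells. The 24 members that lead the 4 populations, 6 each, were those with the largest differences among called members whose 3 libraries lay above the 9 others, and 23 of them are shown by library in the heat map.

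**Figure D2:**
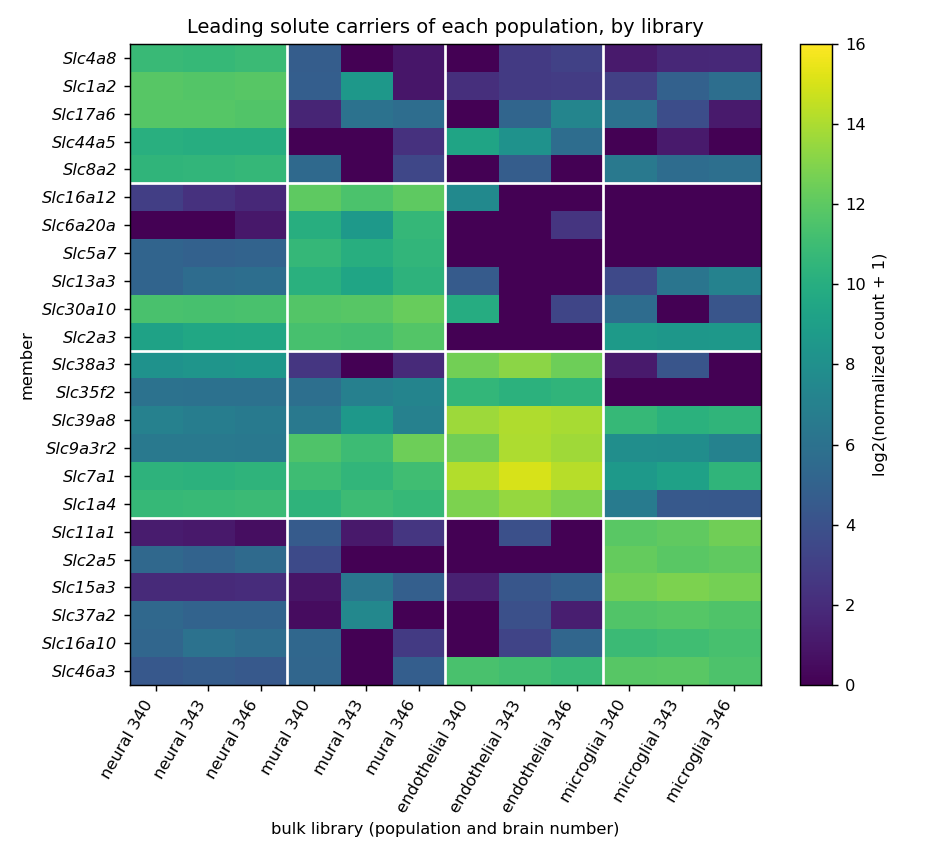
Level of 23 leading members (rows, 5 neural, then 6 each for mural, endothelial and microglial cells) in each of the 12 bulk libraries (columns), on the log2(normalized count + 1) scale. Each block on the diagonal is brighter than the rest of its rows, while others such as *Slc30a10* and *Slc46a3* also have clear levels in a second population.

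Of 23 amino acid carriers, 10 (43.5%) were higher in endothelial cells, 9 (39.1%) in neural cells, 8 (34.8%) in microglia and 2 (8.7%) in mural cells, and 0 of the 23 had no call in any contrast. Together they took 0.235% to 0.378% of the normalized counts in endothelial libraries and 0.0569% to 0.0775% in mural libraries.

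*Slc38a3* (chr9:107650634-107669530), which encodes the glutamine transporter SNAT3, led the endothelial members. Its normalized counts were 6122, 9566 and 5659 in endothelial libraries, 287, 325 and 357 in neural libraries, 4.81, 0 and 2.82 in mural libraries and 1.19, 17.8 and 0 in microglial libraries. The endothelial libraries were highest, and the log2 difference was 8.89 (SE 0.81). In the single cells, *Slc38a3* was found in 162 of 225 wells, or 72%, of the endothelial gate, and 41.8% after thinning to 1500 transcripts per well. In the mural gate, which should lack it, it was found in 4 of 210 wells, or 1.9%, and in microglia in 0 of 128 wells, which allows a share of up to 2.34%. The median depth was 6408 transcripts per endothelial well, 6885 per mural well, 7717 per neural well and 10761 per microglial well. Such limits are for wells with a transcript found and cover counting error only, not transcripts missed at this depth.

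The cationic amino acid transporter *Slc7a1* (chr5:148327410-148399904) had 18214, 33107 and 20165 normalized counts in endothelial libraries and 397 to 1391 in microglia, where it was lowest. The difference of microglia from neural cells, the next lowest, did not pass the test (adjusted p = 0.060). The endothelial log2 difference of *Slc7a1* was 4.28 (SE 0.32, adjusted p = 3.5e-06) in bulk and 3.89 (SE 0.27, adjusted p = 5.2e-19) in single cells. For the alanine and serine transporter *Slc1a4* (chr11:20302180-20332713), the endothelial libraries had 7497, 11272 and 7834, and all 9 others lay between 20.1 and 1991. Its bulk difference was 4.19 (SE 0.41, adjusted p = 2.0e-05).

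The System A carriers *Slc38a1*, *Slc38a2* and *Slc38a4*, which take up glutamine, alanine and other small neutral amino acids, were distributed unlike each other. *Slc38a1* was highest in neural cells, with 10413 ± 645 normalized counts (SD, n = 3), and lowest in mural cells, with 939 ± 587. *Slc38a2* had 26315 ± 5595 in endothelial, 16087 ± 37.1 in neural and 3707 ± 566 in mural cells. Its endothelial level was 0.69 above the neural one on the log2 scale, which did not pass the test (adjusted p = 0.052). *Slc38a4* was found in mural (747 ± 468) and endothelial cells (313 ± 186) and was near 0 in microglia (0, 0 and 1.26).

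**Figure D3:**
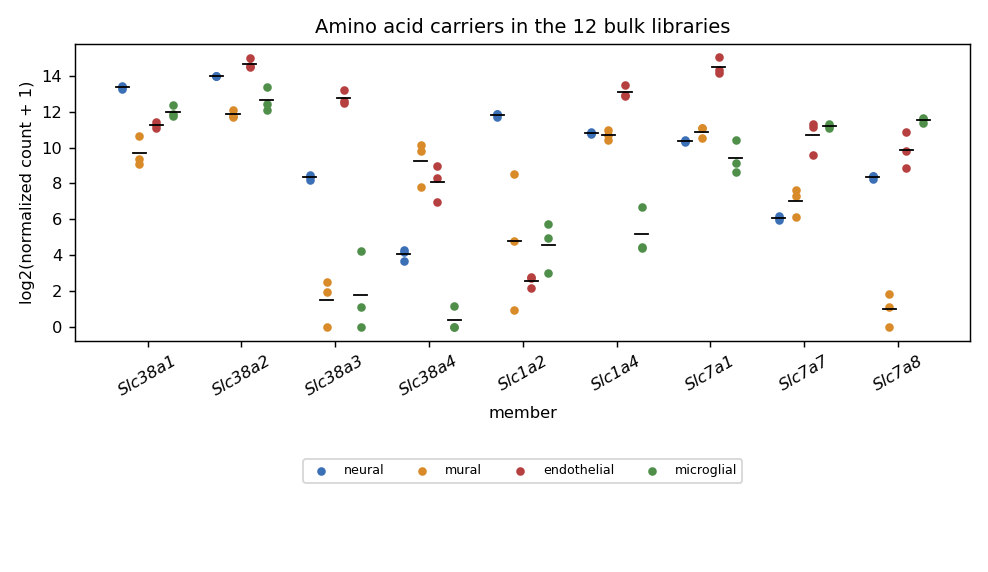
Levels of 9 amino acid carriers (x axis) in the 12 bulk libraries on the log2(normalized count + 1) scale (y axis). Points are libraries and bars are population means of 3. Endothelial points are highest for *Slc38a2*, *Slc38a3*, *Slc1a4* and *Slc7a1*, neural points for *Slc38a1* and *Slc1a2*, and microglial means for *Slc7a7* and *Slc7a8*.

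Among the amino acid carriers higher in microglia, *Slc15a3* (chr19:10839727-10859362), which encodes a lysosomal peptide and histidine transporter, had 6306, 7461 and 6487 in microglia and at most 76.5 in any other library, with a log2 difference of 9.55 (SE 1.02). Its exons overlap those of *Tmem132a* on the opposite strand over 28.1% of their bases, and the strand used in counting is not given in the sources used here. In single cells, which count the 3′ end, the difference was 7.70 (SE 0.43, adjusted p = 1.3e-22).

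*Slc7a8*, which encodes the light chain LAT2 of a neutral amino acid exchanger, had 3244, 2588 and 3105 in microglia and 471, 1892 and 882 in endothelial cells. In mural libraries it had 2.62, 1.14 and 0, so mural cells were lowest and the difference of mural from the other populations was -8.93 (SE 0.45, adjusted p = 2.3e-07). All neighbours in its order of microglial, endothelial, neural and mural cells differed (adjusted p = 0.039, 0.038 and 1.3e-06). The related *Slc7a7*, which encodes y+LAT1, had 2358 ± 157 in microglia, 1866 ± 957 in endothelial cells, 143 ± 67 in mural cells and 66.9 ± 5.57 in neural cells. The difference between microglia and endothelial cells did not pass the test (adjusted p = 0.46).

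*Slc1a2*, which encodes the glutamate transporter GLT-1, led in neural cells. It had 3671, 3367 and 3728 in neural libraries and 27.1, 369 and 0.939 in mural libraries, of which that of the second brain stands well above the others. The summed neural markers were 35702 in that mural library and 27682 and 20463 in the other two, and of the 6 markers all but *Nes* were highest there. Their part in the *Slc1a2* level was not tested. The log2 difference of neural cells was 7.84 (SE 1.21) in bulk and 3.37 (SE 0.32, adjusted p = 3.0e-13) in single cells.

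Of 12 carriers of transmitters and related solutes, 8 (66.7%) were higher in neural cells and 2 (16.7%) in each other population. The vesicular glutamate transporter genes *Slc17a6* (VGLUT2) and *Slc17a7* (VGLUT1) had 3465 ± 164 and 776 ± 25.2 in neural cells. Per kilobase of exon, the level of *Slc17a6* in neural cells was 642 and that of *Slc17a7* 144 normalized counts. In single cells *Slc17a6* had 73.6 transcripts per 1000000 in the neural gate, 115 on plate 1, 45 on plate 2 and 0 on plate 3, where 14 neural wells were kept.

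The creatine transporter *Slc6a8* was also neural, with 2591 ± 129 and a log2 difference of 3.43 (SE 0.35, adjusted p = 9.4e-06). The taurine transporter *Slc6a6* was not: it had 13961, 22817 and 14589 in endothelial libraries, 6634, 7069 and 10644 in microglia, 3640.3, 3595 and 3699 in neural libraries and 505, 555 and 806 in mural libraries. Endothelial libraries lay above all others, with a difference of 2.68 (SE 0.20, adjusted p = 2.8e-06). *Slc6a20a* (SIT1), a transporter of proline and other imino acids, was a mural gene, with 1036, 388 and 1629 in mural libraries and at most 4.52 elsewhere. Its difference was 9.37 (SE 0.65), and it has a near-identical neighbour, *Slc6a20b*, so that reads could be split between them. Transcripts of *Slc6a20a* were found in 31 of 210 wells, or 14.8%, of the mural gate, and in none of the neural, endothelial or microglial wells. This allows up to 2.44%, 1.33% and 2.34% of wells with a transcript found. With so few mural wells positive, it does not limit the share of cells that express the gene.

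The monocarboxylate group holds the SLC16 family. Of 7 members, 1 (14.3%) was higher in mural and 2 (28.6%) in neural cells, and 3 (42.9%) each in endothelial cells and microglia. *Slc16a12* (chr19:34668403-34747289), which encodes a creatine transporter, led all mural members, with 4194, 2789.5 and 4195 in mural libraries, 189.6, 0 and 0 in endothelial, 6.68, 3.88 and 2.64 in neural and 0, 0 and 0 in microglial libraries. It was at 0 in all 3 microglial libraries, and mural cells were at least 1025-fold higher than a floor of 3 reads in each of them. The difference of mural cells was 10.21 (SE 1.33) in bulk and 6.46 (SE 0.63, adjusted p = 1.5e-12) in single cells.

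*Slc16a10*, which encodes the aromatic amino acid transporter TAT1, was microglial, with 1933, 2151 and 2599.7 in microglia and at most 63.7 elsewhere and a log2 difference of 7.37 (SE 1.15). *Slc16a6* and the lactate exporter *Slc16a3* (MCT4) were also higher in microglia, by 3.89 and 3.20 on the log2 scale.

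Of 12 sugar carriers, 6 (50%) were higher in neural cells, 5 (41.7%) in microglia, 3 (25%) in mural cells and 1 (8.33%) in endothelial cells. *Slc2a5* (chr4:150119283-150144169), the fructose transporter GLUT5, had 4746, 3756 and 4379 in microglia, 41.4, 33.2 and 46.2 in neural libraries, 10.9, 0 and 0 in mural libraries and 0 in each endothelial library. Microglia were highest, with a difference of 9.88 (SE 0.72), and lay at least 914-fold above a floor of 3 reads in each endothelial library. In single cells it was found in 71 of 128 wells, or 55.5%, of the microglial gate, 15.6% after thinning, and in 0 wells of the neural, mural and endothelial gates. This allows up to 2.44%, 1.43% and 1.33% of wells with a transcript found, and does not cover missed transcripts. *Slc37a2*, a sugar phosphate exchanger of the endoplasmic reticulum in macrophages, followed with 3239, 3469 and 3146 in microglia and 0.437, 175 and 0 in mural libraries.

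The neuronal glucose transporter *Slc2a3* (GLUT3) was highest in mural cells, with 2556, 2366 and 3304, followed by 605, 733 and 764 in neural cells and 417, 357 and 365 in microglia. No endothelial library had a read, and mural cells were at least 584-fold higher. All neighbours in this order differed (adjusted p = 0.00033, 0.031 and 1.4e-08). In single cells *Slc2a3* had 48.4 transcripts per 1000000 in mural, 16.6 in neural, 9.49 in microglial and 2.4 in endothelial wells. *Slc5a7*, the choline transporter of cholinergic neurons, was placed here by its family. It was mural in these data, with 1616, 1056 and 1489.6 in mural libraries, 34.7, 30.5 and 32.5 in neural libraries and 0 in the 6 others, so that mural cells were at least 295-fold above the floor in endothelial cells. Its difference was 8.73 (SE 0.41) in bulk and 4.18 (SE 0.51, adjusted p = 8.8e-10) in single cells.

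Of 22 metal carriers, 9 (40.9%) were higher in neural cells, 6 (27.3%) in endothelial cells, and 2 (9.09%) each in mural cells and microglia. The largest difference was that of *Slc11a1* (chr1:74375195-74386062), which encodes NRAMP1, the metal transporter of phagosomes. It had 3798, 4372 and 5802 in microglia, 22.7, 1.14 and 4.7 in mural, 0, 14.2 and 0 in endothelial and 1.34, 1.11 and 0.528 in neural libraries. Microglia were highest, with a difference of 10.49 (SE 0.92), while no difference passed the test between mural and endothelial or endothelial and neural cells (adjusted p = 0.39 and 0.82). In single cells *Slc11a1* was found in 83 of 128 wells, or 64.8%, of the microglial gate and 25.8% after thinning, and in 3 of 210 wells, or 1.43%, of the mural gate, with 0% after thinning.

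The zinc and manganese importer *Slc39a8* (ZIP8) had 12974, 17217 and 15165 in endothelial libraries and 1675, 1205 and 1401 in microglia, against 87.4 to 376 in mural and 96.4 to 128 in neural libraries. Its endothelial difference was 5.67 (SE 0.35, adjusted p = 7.4e-07). The zinc importer *Slc39a10* and the copper transporters *Slc31a1* and *Slc31a2* were also higher in endothelial cells, by 2.47, 1.80 and 2.91 on the log2 scale. *Slc30a10*, a manganese exporter, was shared by mural (3351, 3748 and 5081) and neural cells (2749.6, 2554 and 2761), with no difference past the test between them (adjusted p = 0.84). Endothelial libraries were uneven, with 964, 0 and 9.05. The mural difference was 5.60 (SE 1.70, adjusted p = 0.022) and lost its call without the second brain (adjusted p = 0.088) or the third (adjusted p = 0.18). In single cells it was called higher in both gates, by 4.36 (SE 0.46, adjusted p = 1.1e-11) in mural and 3.14 (SE 0.58, adjusted p = 9.4e-06) in neural wells.

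Of 22 ion and pH carriers, 13 (59.1%) were higher in neural cells, 6 (27.3%) in microglia, 3 (13.6%) in mural cells and 1 (4.55%) in endothelial cells. *Slc4a8* (chr15:100761747-100823968), a sodium-driven chloride and bicarbonate exchanger, led all neural members. It had 1843, 1666 and 1942 in neural libraries and at most 24.9 in any other, a difference of 9.03 (SE 0.96). In single cells the difference was 3.97 (SE 0.64, adjusted p = 6.9e-07). The sodium-calcium exchanger *Slc8a2* had 1495 ± 102 in neural cells and at most 86.8 in another library. The chloride importer *Slc12a2* (NKCC1) was highest in mural cells, with 11711, 10586 and 9402 and a difference of 2.54 (SE 0.37, adjusted p = 3.1e-04). The neuronal chloride exporter *Slc12a5* (KCC2) had 874 ± 89.7 in neural and 300 ± 127 in mural cells. Endothelial cells were next after neural cells, 1.62 lower on the log2 scale (adjusted p = 0.017), and lay only 0.0134 above mural cells. In single cells *Slc12a5* did not pass the filter and had 28.4 transcripts per 1000000 in mural and 12.4 in neural wells, the opposite order of mural and neural cells. The endosomal sodium-proton exchanger *Slc9a9* was shared by mural (2786 ± 488) and microglial cells (2312 ± 971), and was low in neural (65 ± 0.69) and endothelial cells (16.3 ± 20.8).

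Among 16 carriers of vitamins, nucleosides and lipids, 6 (37.5%) were higher in endothelial cells, 5 (31.2%) in neural cells, 4 (25%) in microglia and 1 (6.25%) in mural cells. *Slc46a3*, a lysosomal carrier, had 3599, 3772 and 2952 in microglia and 2741, 2271 and 1826 in endothelial cells, with no difference past the test (adjusted p = 0.72), against at most 38 in the other 6 libraries. Its relative *Slc46a1*, a proton-coupled folate transporter, had 815 ± 229 in microglia, and the difference from mural cells, the next highest, did not pass the test (adjusted p = 0.28). The reduced folate carrier *Slc19a1* was the mural member, with 6557, 3748 and 8878 in mural libraries and 774 to 944 in endothelial libraries, the next highest. Its difference was 3.72 (SE 0.24, adjusted p = 1.1e-06) in bulk and 4.60 (SE 0.36, adjusted p = 1.2e-16) in single cells. The nucleoside transporter genes were divided: *Slc29a1* (ENT1) was higher in endothelial cells by 2.58, the lysosomal *Slc29a3* (ENT3) in microglia by 2.97 and *Slc29a4* (PMAT) in neural cells by 5.43. The choline-like transporter *Slc44a5* was found in neural (1071, 1007 and 1010.3) and endothelial libraries (654, 289.6 and 51.3) and at 3.76 or less in the others.

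Of 9 organic ion and drug carriers, 3 (33.3%) were higher in neural, 3 (33.3%) in mural and 2 (22.2%) in endothelial cells. *Slc22a8* (chr19:8591254-8611835), which encodes the organic anion transporter OAT3, had 3955, 5154 and 4662 in endothelial and 2193, 3112 and 4522 in mural libraries, with no difference past the test (adjusted p = 0.47). It had 0, 1.66 and 1.06 in neural libraries and no read in microglia, where endothelial cells were at least 1263-fold higher. In single cells the endothelial wells had 136 transcripts per 1000000 and the mural wells 54.8, and both gates were called higher. *Slc13a3*, a sodium-coupled dicarboxylate transporter, was mural (1134, 678 and 1278, at most 134.7 elsewhere). *Slc10a1*, known as a bile acid transporter of liver, had no read in neural libraries but 301, 538 and 626 in mural, 849, 840.4 and 356 in endothelial and 15.5, 93.7 and 534 in microglial libraries. In single cells it was at 0.645, 4.8 and 0 transcripts per 1000000 in these gates and did not pass the filter. The neural members *Slc22a17* and *Slc22a23* were higher by 4.03 and 3.61 in bulk. In single cells the *Slc22a23* level of the endothelial gate (43.2 transcripts per 1000000) was close to that of the neural gate (35.2).

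Mitochondrial carriers included the members highest per kilobase. Of 34, 12 (35.3%) had no call in any contrast, beside 27.2% of all genes tested, 7 (20.6%) were higher in neural cells, 5 (14.7%) in microglia, 4 (11.8%) in endothelial cells and 3 (8.82%) in mural cells. Together they took 0.342% to 0.369% of normalized counts in mural libraries, 0.249% to 0.274% in microglia, 0.220% to 0.228% in neural cells and 0.206% to 0.213% in endothelial cells. The ADP/ATP carrier genes *Slc25a5* and *Slc25a4* had the highest level per kilobase of exon. *Slc25a5* had 32313 ± 4363 normalized counts in mural cells, 31762 ± 6312 in microglia, 15768 ± 878 in endothelial cells and 5607 ± 226 in neural cells. *Slc25a4* had 25986 ± 127 in mural cells, 13427 ± 1201 in endothelial cells, 9226 ± 1276 in microglia and 7291 ± 332 in neural cells. Both have close copies, each other and pseudogenes among them, so the split of reads is uncertain.

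In single cells, all of 1 chemistry, *Slc25a4* had a microglial difference of -1.10 (SE 0.30, adjusted p = 0.002), while its neural difference was 0.64 (SE 0.27, adjusted p = 0.051) against -1.01 (SE 0.09, adjusted p = 2.8e-06) in bulk. The phosphate carrier *Slc25a3* had no call in bulk, with population means from 6551 to 12013. *Slc25a45* differed most of the family, with 4397, 4786 and 3977 in microglia, 732, 795 and 683 in endothelial, 504, 93.6 and 317 in mural and 4.01, 4.43 and 7.4 in neural libraries. The rank rests on its neural level, where the kit also differs. That level lay 5.34 (SE 0.52) below mural cells, the next lowest, on the log2 scale. Its microglial difference was 5.40 (SE 0.43, adjusted p = 2.1e-06) in bulk and 4.93 (SE 0.46, adjusted p = 1.2e-13) in single cells. The members *Slc25a23* and *Slc25a27* were neural, by 4.46 (SE 0.42) and 5.23 (SE 1.07) on the log2 scale. The glutamate carrier *Slc25a22* had a neural difference of 3.30, but that from microglia alone did not pass the test (adjusted p = 0.14).

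**Figure D4:**
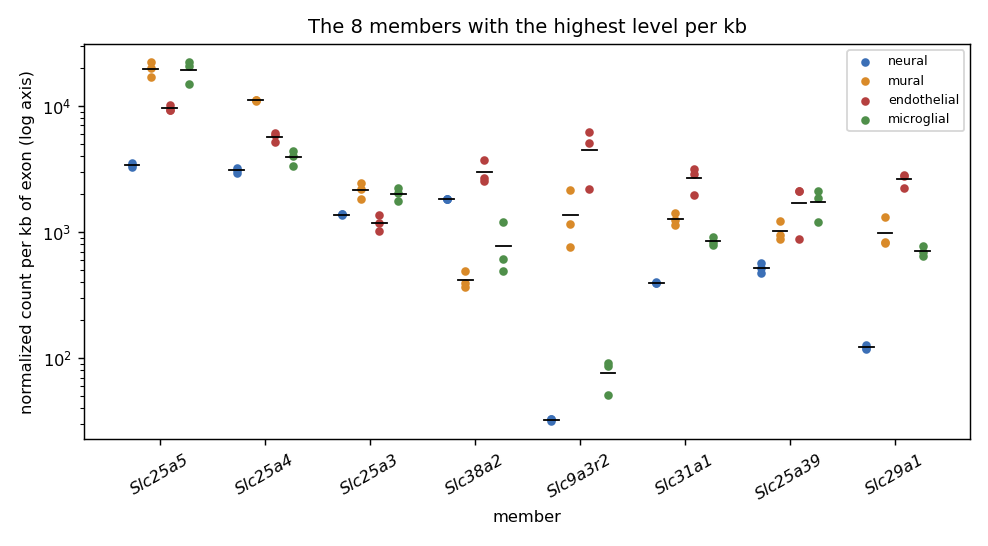
Levels of the 8 members highest per kilobase of exon (x axis) in the 12 bulk libraries, as normalized counts per kilobase on a log axis (y axis). Points are libraries and bars population means of 3. *Slc25a5* and *Slc25a4* lie highest, and *Slc9a3r2* spans the widest range, from 32.5 in neural to 4489 in endothelial cells.

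The nucleotide sugar group holds carriers of the Golgi and endoplasmic reticulum and their SLC35 relatives. Of 21, 5 (23.8%) had no call, beside 27.2% of all genes tested, 4 (19%) were higher in neural cells and 3 (14.3%) in each other population. *Slc35b1* and *Slc35b4* were among the 5 members with the smallest range, with population means of 1394 to 2086 and 1229 to 1686. *Slc39a11*, *Slc20a2* and *Slc7a6os* were the others. *Slc35f2* had 1534, 1255 and 1424 in endothelial libraries, 56.4, 122 and 150.3 in mural, 64.1, 60.9 and 60.8 in neural and none in microglial libraries, with an endothelial difference of 6.23 (SE 0.41). *Slc35f1* was neural, with 3708 ± 49.7 and a difference of 6.16 (SE 0.83).

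Of the members, 4 carry a solute carrier symbol but are no transporters. *Slc9a3r2* (NHERF2), a scaffold protein, had 5794, 16397 and 13443 in endothelial and 3083, 2028 and 5659 in mural libraries, against 83.5 to 87.5 in neural and 135 to 241 in microglial libraries. *Slc9a3r1* (NHERF1) was highest in mural cells (4339.7, 3518 and 5375) and lowest in endothelial cells (195, 344 and 60.3), so that the 2 scaffolds were both higher in mural cells, by 2.53 and 3.29, and opposite in endothelial cells, by 4.82 and -3.05. *Slc4a1ap* and *Slc7a6os* had no call.

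The 3 pairs among mural, endothelial and microglial cells do not involve the other kit. Between mural and endothelial cells, 26 members were higher in mural cells (14.3%, genes 10.6%) and 42 in endothelial cells (23.1%, genes 12%). *Slc16a12* (9.31, SE 1.63), *Slc2a3* (11.41, SE 0.31) and *Slc5a7* (10.41, SE 0.50) led in mural cells, and *Slc38a3* (-11.27, SE 0.9976), *Slc7a8* (-8.87, SE 0.55) and *Slc46a3* (-7.78, SE 1.07) in endothelial cells, on the log2 scale. Where a population was at 0, as for *Slc2a3* and *Slc5a7* in endothelial cells, such a difference depends on the pseudocount and the floors given above apply. Without the first or the third brain the members higher in mural cells numbered 17 and 16. Between microglia and endothelial cells, 39 members were higher in microglia (21.4%, genes 14.5%) and 40 in endothelial cells (22%, genes 13.2%), and the first count was 25 and 24 without the second or the third brain. Between microglia and mural cells, 46 were higher in microglia (25.3%, genes 17.4%) and 31 in mural cells (17%, genes 14.6%). *Slc7a8* (10.55, SE 0.55), *Slc11a1* (9.44, SE 1.13) and *Slc2a5* (10.87, SE 0.88) led in microglia.

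The single cells were not used by the rule and gave a second reading of each population. Of 686 wells with over 1500 transcripts, 123 were neural, 210 mural, 225 endothelial and 128 microglial, and 43 of them came from plate 3. Transcripts were summed by plate and gate, and the 12 sums were tested with edgeR's quasi-likelihood test over 9281 genes. Of the 182 members, 180 were listed and 131 passed the filter. In neural cells 20 members (15.3%) were higher, beside 18.1% of genes, in mural cells 15 (11.5%, genes 11.6%), in endothelial cells 31 (23.7%, genes 13.7%) and in microglia 35 (26.7%, genes 17.1%). Without plate 1 these were 6 in neural, 20 in endothelial and 20 in microglial cells, and without plate 2 they were 3, 18 and 17.

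Members higher in a bulk population were looked up in the same gate. The minimum bulk mean was higher for members than for all genes tested, so their shares are not matched for level. Some of the members looked up met that minimum only through the same population, and they were not counted apart. The shares therefore cannot show whether members were called again more often than other genes of like level. For endothelial cells 25 of 28 tested members (89.3%) were called higher again, beside 74% of the genes called higher in bulk, for microglia 27 of 32 (84.4%, genes 78%) and for mural cells 13 of 18 (72.2%, genes 58.8%). For neural cells it was 19 of 43 (44.2%, genes 49.2%). Neural cells had the other kit in bulk, and their gate had the fewest kept wells and the fewest transcripts in sum. The part of either was not tested. The single-cell difference was above 0 in 28 of 28 endothelial, 31 of 32 microglial, 18 of 18 mural and 29 of 43 neural members. The zinc exporter *Slc30a1* had 1911, 1853 and 1783 in neural libraries and a bulk difference of 1.89 (SE 0.31, adjusted p = 3.5e-04), but -0.84 (SE 0.31, adjusted p = 0.023) in single cells, below the 2-fold threshold, while it was higher in endothelial cells in both (1.70 in bulk and 1.998 in single cells). The phosphate transporter *Slc20a1* was likewise higher in neural cells in bulk, by 1.18, and had a single-cell difference of -0.15 (SE 0.29, adjusted p = 0.73). Of the 5 leading neural members named here, *Slc4a8*, *Slc1a2* and *Slc17a6* were called higher in the neural gate, and *Slc44a5* and *Slc8a2* did not pass the filter there.

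**Figure D5:**
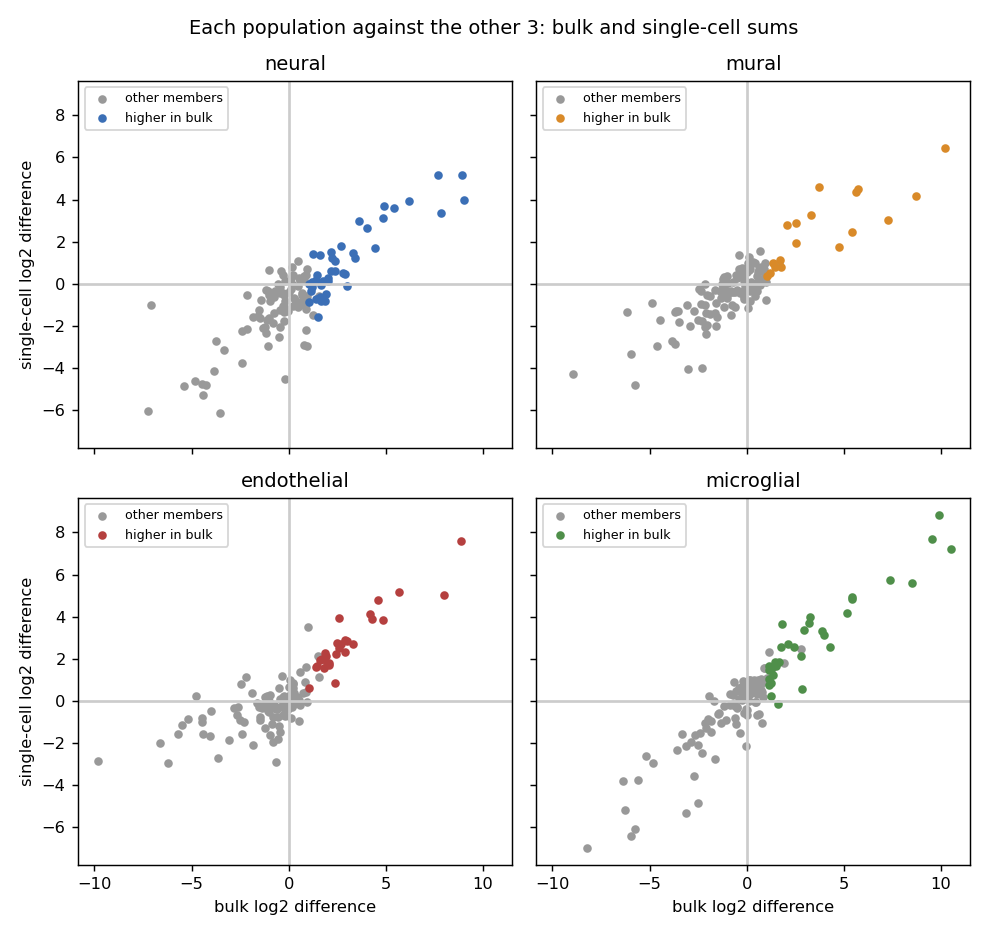
Log2 difference of each population against the mean of the other 3 in bulk (x axis) and in single-cell sums (y axis) for the 131 members tested in both. Coloured points were called higher in bulk. Endothelial coloured points all lie above 0 on the y axis, while 14 of 43 neural ones lie below it.

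The 90 solute carriers with means of 10 to under 200 were counted in the same way. Of these, 35 (38.9%) were higher in neural, 13 (14.4%) in mural, 18 (20%) in endothelial and 14 (15.6%) in microglial cells, beside 29%, 13.5%, 15.4% and 18.5% of all genes. Of 23 other transport genes, 6 (26.1%) were higher in neural, 3 (13%) in mural, 8 (34.8%) in endothelial and 6 (26.1%) in microglial cells. They included the sodium pump subunit *Atp1b2* in mural cells (mean 19310), and *Slco1c1*, *Flvcr2* and the lipid transporter *Mfsd2a* in endothelial cells (7060, 2074 and 6875). Among all 19765 genes, those most like the leading member of each population over the 12 libraries (Pearson's r of log2 levels) were *Fbxl16*, *Lrfn5* and *Lrp2* for *Slc4a8* (0.987, 0.983 and 0.980), *Tbx15*, *Gm48751* and *Cers5* for *Slc16a12* (0.985, 0.979 and 0.969), *Rras2*, *Ly75* and *Sema3g* for *Slc38a3* (0.984, 0.975 and 0.975) and *Cx3cr1*, *Slamf9* and *Rasal3* for *Slc11a1* (0.986, 0.981 and 0.978). The libraries behind these values share their population.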

How the data were processed

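Bulk values were the authors' normalized counts, deposited as a signal per gene and library: reads on genes divided by a size factor. All values up to 100 reads came out as whole reads within 0.01, so depth could be recovered. The submitters' processing notes name BWA (0.6.2-r126), STAR, featureCounts and DESeq2 with the mm10 build, without their roles. Single-cell files were deposited by the authors as transcripts per well, estimated counts from molecular identifiers, which need not be whole, and were rounded after summing. Gates came from the authors' table of wells. The sample titled with plate 3 and number 11 was used with the wells listed as 12, an assignment that rests on the file recorded for it. No deposited column was left unmatched (0).

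The 12 bulk libraries were fitted with limma (3.58.1, R 4.3.3) on log2(normalized count + 1), over genes with a mean of 10 or more, and fold changes are on that scale, which understates changes of low genes. Wells with over 1500 transcripts were kept, summed per plate and gate and tested with edgeR (4.0.16, TMM factors, filterByExpr). P-values were adjusted by Benjamini-Hochberg over all genes, tests were two-sided, and a call needed an adjusted p under 0.05 and over 2-fold. Plates, not cells, were the replicates, and p-values measure the spread between these samples. Whether each plate holds cells of a separate brain was not established here, so single-cell p-values need not measure the spread between animals. Shares of wells were also taken after thinning to 1500 transcripts per well. No doublet caller was run on the single sorted wells, which are numbered, so shared barcodes were not counted.

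Libraries with the same brain number were taken to come from 1 brain, as the study's design has it; their deviations correlated by -0.054 to 0.0801. Both tests were tried on simulated data. Alternatives were other pseudocounts, filters, scalings, edgeR on recovered reads, DESeq2 (1.42.0) on the single-cell sums, a block by brain or plate, and leaving out each brain or plate. Members, role groups (by family number) and gene lists were chosen with earlier results of these data known. Named members were, by rule, per population the 6 with the largest difference among called members whose 3 libraries lay above the 9 others, the 3 per direction and pair among those whose libraries did not overlap, the 8 highest per kilobase of GENCODE vM21 exon, the 5 with the smallest range, the largest difference per role group, those at the edge of the rule and those that are no transporters. Other members named for their role were picked after their values were seen. Exons of 51 members overlap those of another gene, 5 of them over 20% or more of their bases (*Slc39a7*, *Slc33a1*, *Slc15a3* and *Slc16a6* among them), so their values are uncertain. Knockout wells have no gate and were not analysed here. Some members, 1 leading neural member among them, are counted but not reported here by name.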

Additional observations from a re-analysis of the deposited data

How the results depend on the processing

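No result reversed under the alternatives run. Counts of members kept within 1.5 times of their value under other pseudocounts, filters on bulk values, scalings and edgeR on recovered reads, where 64 members were higher in neural, 26 in mural, 39 in endothelial and 40 in microglial cells. Leaving out each brain in turn gave 34 to 44 members lower in mural cells, 26 to 31 lower in endothelial cells, 16 to 21 higher in mural than in endothelial cells and 24 to 28 higher in microglia than in endothelial cells. Single members were rerun for the 24 that lead the populations; of these, only *Slc30a10* in mural cells lost its call in these runs, with log2 differences of 4.35 without the second brain and 5.40 without the third brain. With the brain as a replicate block, 62 members were higher in neural, 24 in mural, 39 in endothelial and 39 in microglial cells, and the pairing changed no call of these 24 and no count by over 1.5 times. In single cells, the members higher in mural cells were 23 with no filter on low counts, and those higher in neural cells 13 with DESeq2. Without plate 1, 6 neural, 20 endothelial and 20 microglial members were higher, and without plate 2 they were 3, 18 and 17. The cause was not tested; each of these last runs has fewer sums, and plate 3 holds 43 of 686 kept wells. Of the 182 members, 131 passed the filter on low counts in single cells, and the others have no test there.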
